A study of Mus musculus with 6 samples.

Results

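The genes described here are 53 mouse DNA repair genes, chosen by symbol to cover the main repair routes, out of 15483 genes listed in each library. All 53 were found under the symbols used, with Mre11 listed as Mre11a, and all 53 passed the filter for testing, which asked for 1 FPKM or more on average in the 6 libraries. FPKM divides the sequenced fragments of a gene by its transcript length and by the size of the library, so levels can be set side by side between genes. By their labels the libraries were made from regulatory T cells (Tregs) sorted from the bone marrow of wild-type mice. Tregs are a Foxp3-dependent kind of CD4 T cell that holds back other immune cells. Over the 6 libraries S100a8, a granulocyte marker, averaged 32154 FPKM and Foxp3 17.6 FPKM. The levels given here therefore cannot be assigned to Tregs alone. There were 3 libraries from mice 3 months after irradiation and 3 from control mice, and the gate given for the sort was CD3+, CD4+, NK1.1- and Foxp3+. The labels used here give no radiation dose, age or sex, and nothing in them says that replicates came from separate animals. P-values therefore measure only the spread between these libraries, which may be technical. A change is the fitted difference in log2(FPKM + 1), irradiated minus control, and the added 1 FPKM makes it too small for genes with low levels.

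DNA breaks are sensed by the MRN complex and signalled by the kinases ATM and ATR, and double-strand breaks are then rejoined by end joining or copied from a sister chromatid by homologous recombination. Damaged or mismatched bases are removed by base excision, nucleotide excision and mismatch repair, which share polymerases and ligases with DNA replication. Ionizing radiation makes double-strand breaks, single-strand breaks and oxidized bases, and lymphocytes also use end joining to assemble their antigen receptor genes.

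Of the 53 repair genes, 1 passed the test 3 months after irradiation. It was Xrcc6, which encodes Ku70, a subunit of the Ku heterodimer that binds broken DNA ends, and it was lower in the irradiated libraries. By limma, 0 were higher at an adjusted p under 0.05. At an unadjusted p under 0.05 in the same test, 4 were higher (Blm, Ercc1, Palb2 and Xrcc3) and 3 lower (Neil1, Ung and Xrcc6). Together these were 13.2% of the repair genes, against 29.6% of all genes tested. Among all 10666 genes tested, 16.6% passed at an adjusted p under 0.05, 6.29% as higher and 10.3% as lower, against 1.89% of the repair genes. The repair genes' changes ran from -0.39 to 0.40 with a median of -0.02, which is also the median of all genes tested. Their median absolute change was 0.12, against 0.15 over all genes tested, while their median standard error was 0.13, against 0.11.

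The promoter of Xrcc6 is shown because this gene alone passed the test. It is the RefSeq sequence on GRCm38.p6 at chr15:82016119-82016418, plus strand, from 250 bases before the RefSeq start site to 50 after it, and 64.3% of its bases are G or C. The gene model of GENCODE M21 spans chr15:81987835-82040085 on the plus strand and begins upstream of the RefSeq start. Capitals mark a match, on the minus strand, to TTTCCCGC, 1 of 4 forms of the E2F octamer that were searched for. E2F proteins are transcription factors that turn on replication genes in cells entering S phase.
Xrcc6: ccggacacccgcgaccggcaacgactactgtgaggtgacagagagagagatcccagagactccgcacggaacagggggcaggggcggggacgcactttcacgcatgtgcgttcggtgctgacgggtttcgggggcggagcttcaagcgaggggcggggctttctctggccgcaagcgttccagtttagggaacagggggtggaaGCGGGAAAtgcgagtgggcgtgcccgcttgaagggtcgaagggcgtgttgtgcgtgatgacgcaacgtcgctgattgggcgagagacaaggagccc

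The octamer was searched on both strands as TTTCGCGC, TTTGGCGC, TTTCCCGC and TTTGCCGC. It was in the promoter of 9 of the 44 repair genes that have a promoter in the RefSeq table, or 20.5%, against 427 of 8681 tested genes, or 4.92%. No promoter entry was matched for Rad50, Nbn, Xrcc2, Wrn, Prkdc, Polb, Ercc3, Pole and Fancd2. The 9 matches are shown with up to 10 bases on each side, read 5′ to 3′ along the strand of the gene, because the rule that chose the genes did not use them. Capitals mark the octamer or its reverse complement. The matches in Bard1, Mdc1, Msh3 and Msh6 read along the gene's strand and the other 5 on the opposite strand. In Msh3 a second match overlaps the one in capitals. A match describes these letters and does not show that a factor binds there.
Bard1: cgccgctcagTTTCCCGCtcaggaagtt
Brca2: ttaggccacaGCGGGAAAcagacacaca
Chek2: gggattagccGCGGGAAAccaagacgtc
Lig1: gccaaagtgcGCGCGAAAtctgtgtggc
Mdc1: cttcagcctgTTTCCCGCcggtagccgc
Msh3: tgccgtcaagTTTGGCGCgaaatcgcag
Msh6: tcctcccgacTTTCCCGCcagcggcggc
Pold1: gtatcttgtgGCGGGAAAagc
Xrcc6: gggggtggaaGCGGGAAAtgcgagtggg

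The repair genes with the octamer had a median change of -0.04 and those without it a median of 0.00. Over all tested genes with a promoter entry the medians were -0.01 with the octamer and -0.02 without it. Of the 9 genes shown, Xrcc6 was the one that passed the test, and Msh6, Lig1 and Brca2 had changes of -0.25, -0.12 and 0.18 that did not.

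The levels of the 53 genes differed far more between genes than between groups. Their mean over the 6 libraries ran from 2.25 FPKM for Lig4, the ligase of end joining, to 48.8 FPKM for Lig1, the ligase that seals replication and long-patch repair. The median repair gene had 7.61 FPKM, against 11.5 FPKM for all genes tested. The genes shared with replication were the highest, with a class median of 35.5 FPKM for the repair polymerases, Fen1 and Lig1 and of 32.5 FPKM for the single-strand binding subunits. Nucleotide excision repair followed at 10.9 FPKM and base excision repair at 8.54 FPKM. All other classes were lower, those that act on double-strand breaks among them. The medians were 5.26 FPKM for homologous recombination, 4.20 FPKM for break sensing and 4.17 FPKM for end joining. Next to these were 6.72 FPKM for the Fanconi anaemia genes, 5.15 FPKM for the damage kinases and 4.54 FPKM for mismatch repair. The 53 levels summed to 627.6, 657.8 and 631.5 FPKM in the irradiated libraries, against 637.2, 634.2 and 653.5 FPKM in the control libraries, and these sums overlapped.

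**Figure D1:**
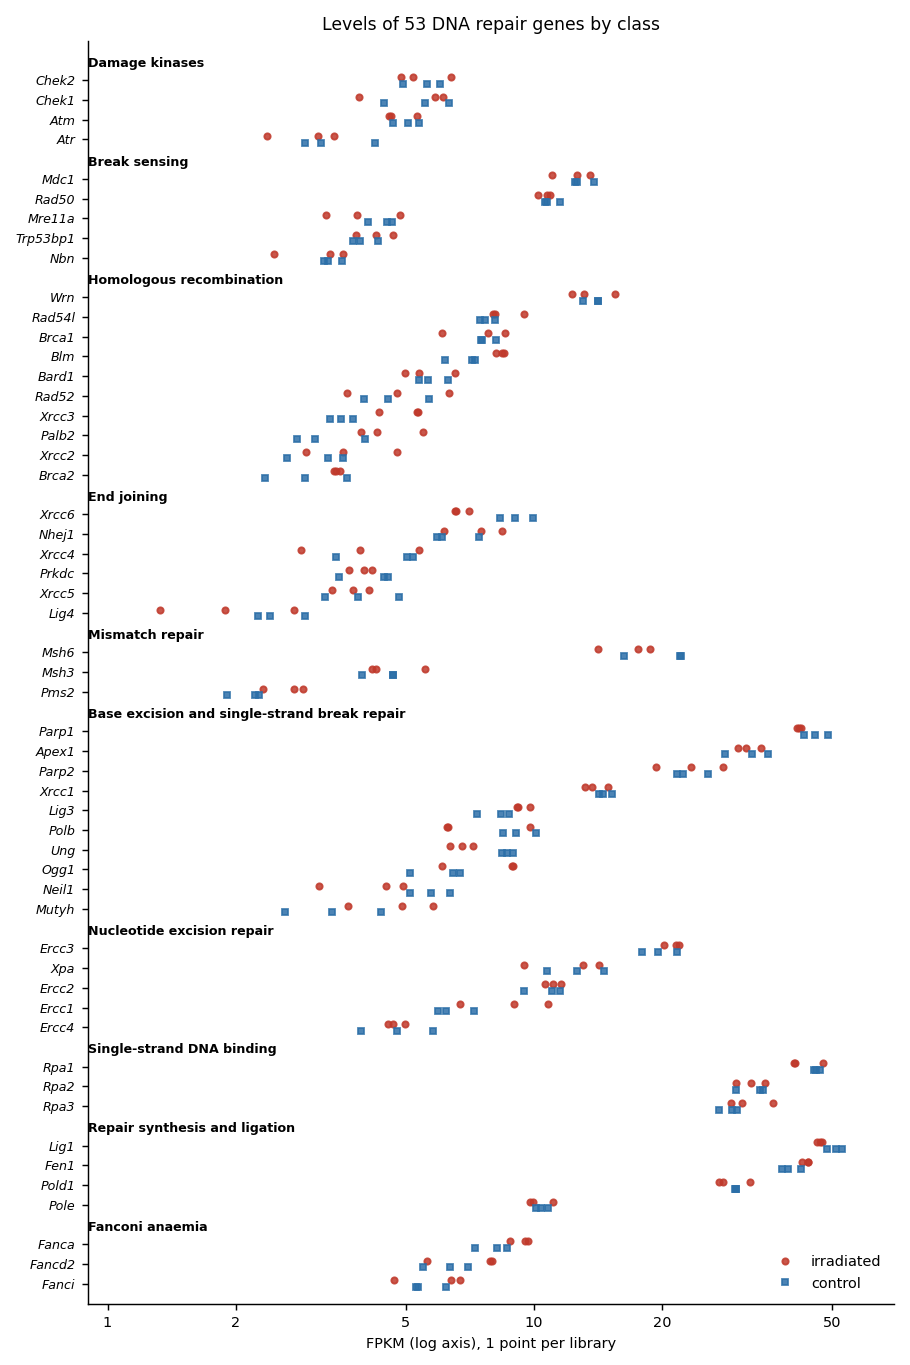
Level of each repair gene in every library, in FPKM on a log axis, grouped by class and ordered by mean level, with irradiated libraries as circles and control libraries as squares. Levels run from about that of Lig4 (mean 2.25 FPKM) to that of Lig1 (mean 48.8 FPKM), and for most genes the circles and squares overlap.

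The plot of levels by library shows the overlap for most genes. The groups did not overlap for 11 of the 53 genes, or 20.8%, against 33.6% of all genes tested. Blm, Fanca, Fen1, Lig3, Pms2 and Xrcc3 were higher in every irradiated library than in any control library, and Lig1, Neil1, Parp1, Ung and Xrcc6 were lower. At an unadjusted p under 0.05 there were 7 repair genes, or 13.2%, against 29.6% of all genes tested. Both shares lay below the share over all genes.

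The kinase group showed no gene past the test. ATM and ATR are the kinases that start the damage signal, and Chek1 and Chek2 encode the checkpoint kinases they activate. Atr had 3.39, 2.36 and 3.12 FPKM in the irradiated libraries, against 3.16, 2.91 and 4.23 FPKM in the control libraries. Atm had 4.62, 5.33 and 4.56 FPKM in the irradiated libraries, against 4.68, 5.06 and 5.36 FPKM in the control libraries. Both genes overlapped between the groups. Their changes were -0.16 for Atr (95% interval -0.52 to 0.20) and -0.05 for Atm (-0.32 to 0.22). Chek2, the highest of the 4, had 6.40, 4.87 and 5.21 FPKM in the irradiated libraries, against 5.60, 6.01 and 4.92 FPKM in the control libraries, a change of -0.01 (-0.30 to 0.29). Chek1 averaged 5.29 ± 1.21 FPKM in the irradiated libraries and 5.44 ± 0.940 FPKM in the control libraries (SD, n = 3 each). The 4 fitted changes were negative and small, from -0.16 to -0.01.

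Among the break sensors the groups overlapped for all 5 genes. Mre11a, Rad50 and Nbn encode the MRN complex, and Mdc1 and Trp53bp1 encode proteins that gather on the chromatin beside a break. Mdc1, the highest of them, had 11, 13.5 and 12.6 FPKM in the irradiated libraries, against 12.5, 12.6 and 13.8 FPKM in the control libraries. Mre11a, the nuclease of the complex, had 3.26, 4.85 and 3.84 FPKM in the irradiated libraries, against 4.08, 4.53 and 4.65 FPKM in the control libraries. The lowest value of each gene was in an irradiated library, and the ranges crossed. Their changes were -0.07 (95% interval -0.29 to 0.15) for Mdc1 and -0.13 (-0.45 to 0.19) for Mre11a. Rad50, whose protein tethers the ends, averaged 10.6 ± 0.341 FPKM in the irradiated libraries and 10.9 ± 0.463 FPKM in the control libraries (SD, n = 3 each). Nbn, the adaptor that recruits ATM, had a change of -0.09 and Trp53bp1, which favours end joining over resection, one of 0.07.

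Homologous recombination had, with the Fanconi anaemia genes, the highest class median of change, 0.15 over 10 genes, of which 7 were positive and 3 negative, and none passed the test. Xrcc3, which takes part in strand exchange, had 5.35, 4.33 and 5.31 FPKM in the irradiated libraries, against 3.33, 3.53 and 3.77 FPKM in the control libraries. All 3 irradiated libraries lay above all 3 control libraries. The change was 0.40 ± 0.13 (SE; 95% interval 0.11 to 0.68), with a limma, Benjamini-Hochberg adjusted p of 0.0610. Palb2, whose protein links BRCA1 to BRCA2, had 4.28, 5.49 and 3.92 FPKM in the irradiated libraries, against 2.78, 3.07 and 4.02 FPKM in the control libraries. One irradiated library lay below the highest control library, so the groups overlapped. Its change was 0.38 ± 0.16 (SE; 95% interval 0.03 to 0.72), with a limma, Benjamini-Hochberg adjusted p of 0.138. Wrn, a RecQ helicase and the highest gene of the class, had 13.1, 15.5 and 12.3 FPKM in the irradiated libraries, against 14.1, 13.0 and 14.1 FPKM in the control libraries, and the groups overlapped.

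Blm, the RecQ helicase that dissolves recombination intermediates, averaged 8.35 ± 0.195 FPKM in the irradiated libraries and 6.88 ± 0.600 FPKM in the control libraries (SD, n = 3 each). Its groups did not overlap, and its change of 0.25 did not pass (limma, Benjamini-Hochberg adjusted p = 0.149). Brca2, a tumour suppressor of this route, had a change of 0.18 and Xrcc2, which also takes part in strand exchange, one of 0.18, each with overlapping groups. Brca1 and Bard1, the partners of a ubiquitin ligase, had changes of -0.05 and -0.04. Rad54l, a DNA translocase, had a change of 0.12 and Rad52 one of 0.03.

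End joining held the gene that fell. Xrcc6 had 6.52, 6.57 and 7.03 FPKM in the irradiated libraries, against 9.96, 9.04 and 8.34 FPKM in the control libraries. The highest irradiated library lay below the lowest control library. The means were 6.71 ± 0.279 FPKM in the irradiated libraries and 9.12 ± 0.812 FPKM in the control libraries (SD, n = 3 each). Xrcc6 fell by 0.39 on the log2 scale (SE 0.11; 95% interval -0.63 to -0.15; limma, Benjamini-Hochberg adjusted p = 0.0316). The call depended on the libraries and on the processing. It remained in 2 of the 6 fits that left out 1 library, without irradiated replicate 3 and without control replicate 3, and was lost without irradiated replicate 1 or 2 and without control replicate 1 or 2. It was also lost with quantile normalization (limma, Benjamini-Hochberg adjusted p = 0.0535), where Xrcc3, as higher, was the 1 repair gene that passed, with no filter (0.0553) and with the replicate number as a block (0.06). Over all 15 alternative fits its adjusted p ran from 0.0231 to 0.13 and its change from -0.45 to -0.33. Exons of Desi1 on the opposite strand cover 344 bases of the Xrcc6 exons, or 7.69%, and Desi1 had a change of -0.09 (limma, Benjamini-Hochberg adjusted p = 0.546).

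The other 5 end-joining genes overlapped between the groups. Xrcc5 encodes Ku80, the partner of Ku70, and averaged 3.74 ± 0.368 FPKM in the irradiated libraries and 3.98 ± 0.798 FPKM in the control libraries (SD, n = 3 each), a change of -0.06 (95% interval -0.39 to 0.27). The level of Xrcc6 over that of Xrcc5 was 1.59, 1.75 and 2.09 in the irradiated libraries, against 3.07, 1.87 and 2.16 in the control libraries, and these ratios overlapped. Lig4 had 1.33, 2.73 and 1.89 FPKM in the irradiated libraries, against 2.90, 2.25 and 2.40 FPKM in the control libraries, a change of -0.26 (95% interval -0.67 to 0.15). Lig4 had the lowest mean level of the 53 genes. Its relative spread over the irradiated libraries was the widest of them, a coefficient of variation of 35.7%, against 13.5% over the control libraries. Prkdc, the DNA-dependent kinase that Ku recruits, had a change of -0.05, Xrcc4, the scaffold of LIG4, one of -0.16, and Nhej1, which bridges the ends with XRCC4, one of 0.16.

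**Figure D2:**
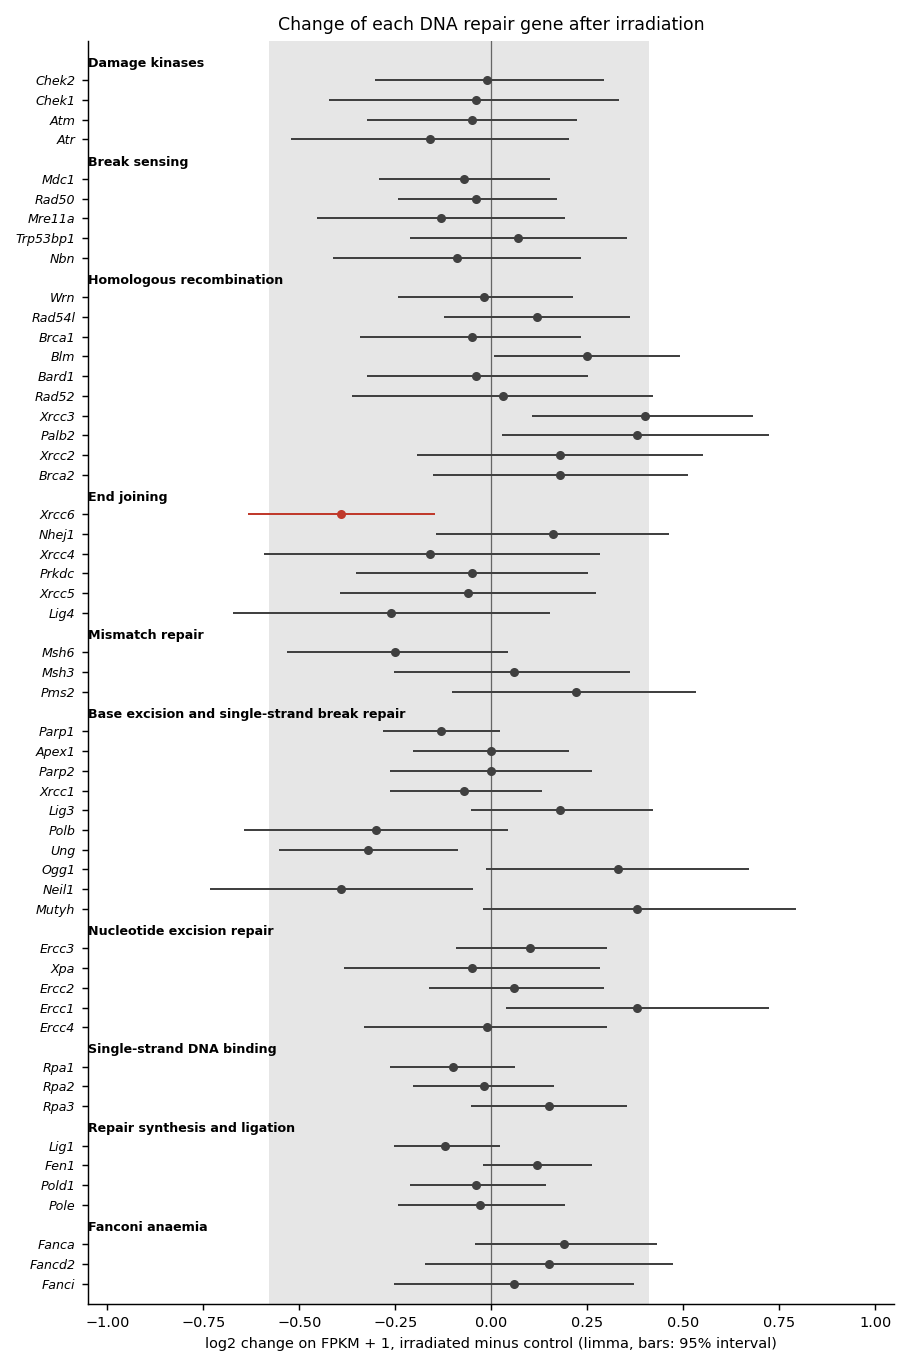
Change of each repair gene as irradiated minus control on log2(FPKM + 1), with points for the limma estimate and bars for its 95% interval, grouped by class. Xrcc6 (-0.39, interval -0.63 to -0.15) is the one gene past the adjusted threshold, and no interval reaches a change of 1 in either direction.

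The plot of changes with their intervals shows what sizes the data leave room for. Across the 53 genes the outermost interval bounds were -0.73 and 0.79. No repair gene changed by 1 or more on the log2 scale, against 1.99% of all genes tested. For 37 of the 53 the whole interval lay within 0.5 of 0, against 7023 of all 10666 genes tested. Changes within 0.2 of 0 were found for 40 of the 53, against 6657 of the 10666. With a pseudocount of 0.1 FPKM in place of 1, the changes ran from -0.47 to 0.48 and the outermost bounds were -0.97 and 0.97.

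In mismatch repair, Msh6, a subunit of the complex that recognizes mismatches, had 18.7, 17.5 and 14.1 FPKM in the irradiated libraries, against 22.0, 16.3 and 22.1 FPKM in the control libraries. Pms2, part of the endonuclease that nicks the strand to be repaired, had 2.74, 2.88 and 2.32 FPKM in the irradiated libraries, against 2.27, 2.22 and 1.91 FPKM in the control libraries. Msh6 overlapped between the groups and Pms2 did not. Neither passed: the changes were -0.25 (95% interval -0.53 to 0.04) for Msh6 and 0.22 (-0.10 to 0.53) for Pms2. Msh3, which recognizes larger loops, had a change of 0.06. Msh6 was 3.63 ± 0.493 times the level of Msh3 in the irradiated libraries and 4.53 ± 0.331 times in the control libraries (SD, n = 3 each), with overlapping groups.

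Base excision and single-strand break repair held changes in both directions, with 4 positive, 6 negative, a median of -0.03 and a median absolute change of 0.24, against 0.12 over the 53 genes. Ung, the glycosylase that removes uracil from DNA, had 6.36, 6.79 and 7.21 FPKM in the irradiated libraries, against 8.95, 8.43 and 8.65 FPKM in the control libraries. Neil1, a glycosylase for oxidized pyrimidines, had 4.49, 3.14 and 4.93 FPKM in the irradiated libraries, against 5.12, 5.74 and 6.37 FPKM in the control libraries. In both genes every irradiated library lay below every control library. Ung had a change of -0.32 ± 0.10 (SE; limma, Benjamini-Hochberg adjusted p = 0.0633) and Neil1 one of -0.39 ± 0.16 (SE; adjusted p = 0.116), so neither passed. The glycosylases that act on 8-oxoguanine and its mispairs had positive changes that did not pass, 0.33 for Ogg1 (95% interval -0.01 to 0.67) and 0.38 for Mutyh (-0.02 to 0.79). Camk1 on the opposite strand shares 232 bases with the exons of Ogg1, or 10.6% of them, and Camk1 fell by 0.45 (limma, Benjamini-Hochberg adjusted p = 0.0028).

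Downstream of the glycosylases the changes were smaller except for Polb. Parp1, the poly(ADP-ribose) polymerase that marks DNA nicks, was the highest gene of the class and had 41.3, 41.8 and 42.3 FPKM in the irradiated libraries, against 42.9, 49.0 and 45.7 FPKM in the control libraries. The groups did not overlap, and the change of -0.13 ± 0.07 (SE) did not pass (limma, Benjamini-Hochberg adjusted p = 0.223). Polb, the gap-filling polymerase, averaged 7.43 ± 2.02 FPKM in the irradiated libraries and 9.22 ± 0.829 FPKM in the control libraries (SD, n = 3 each), a change of -0.30 (95% interval -0.64 to 0.04). Lig3, which seals the nick with XRCC1, averaged 9.37 ± 0.367 FPKM in the irradiated libraries and 8.14 ± 0.712 FPKM in the control libraries (SD, n = 3 each) and Xrcc1, its scaffold, had a change of -0.07. The ratio of Xrcc1 to Lig3 was 1.62, 1.35 and 1.5 in the irradiated libraries, against 1.66, 2.08 and 1.70 in the control libraries, and did not overlap. Exons of Rffl on the opposite strand cover 25.1% of the Lig3 exons. Apex1, the endonuclease that cuts abasic sites, averaged 31.9 ± 2.06 FPKM in the irradiated libraries and 32.0 ± 3.64 FPKM in the control libraries (SD, n = 3 each), with 61.7% of its exons shared with Pip4p1 on the opposite strand. Parp2, the paralog of Parp1, averaged 23.5 ± 4.20 FPKM in the irradiated libraries and 23.2 ± 2.07 FPKM in the control libraries (SD, n = 3 each).

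In nucleotide excision repair, Ercc1, the partner of the ERCC4 nuclease, had 10.8, 8.96 and 6.70 FPKM in the irradiated libraries, against 5.94, 7.25 and 6.22 FPKM in the control libraries. Irradiated replicate 3 lay within the control range, so the groups overlapped. The change was 0.38 ± 0.15 (SE; 95% interval 0.04 to 0.72; limma, Benjamini-Hochberg adjusted p = 0.127). Without irradiated replicate 3 it passed, with a change of 0.54 and an adjusted p of 0.0278 in the same test. Ercc3, a helicase of TFIIH and the highest gene of the class, had 21.5, 20.2 and 21.9 FPKM in the irradiated libraries, against 19.5, 17.9 and 21.7 FPKM in the control libraries, a change of 0.10 (95% interval -0.09 to 0.30). Ercc2, the other TFIIH helicase, had a change of 0.06, Ercc4 one of -0.01 and Xpa, which checks the lesion, one of -0.05.

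Replication protein A coats single-stranded DNA in every repair route that exposes it, and its subunits averaged 44.5 FPKM for Rpa1, 32.5 FPKM for Rpa2 and 30.4 FPKM for Rpa3 over the 6 libraries. Rpa1 had 40.7, 47.5 and 40.9 FPKM in the irradiated libraries, against 46.8, 45.8 and 45.4 FPKM in the control libraries. Rpa3 had 28.9, 36.4 and 30.8 FPKM in the irradiated libraries, against 27.1, 29.2 and 29.9 FPKM in the control libraries. Both overlapped, with changes of -0.10 (95% interval -0.26 to 0.06) for Rpa1 and 0.15 (-0.05 to 0.35) for Rpa3. The ratio of Rpa1 to Rpa3 was 1.40, 1.30 and 1.33 in the irradiated libraries, against 1.73, 1.57 and 1.52 in the control libraries, without overlap. Of 15 such ratios between genes of 1 complex or step, 13 overlapped between the groups, and none was tested.

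Among the polymerases, nucleases and ligases shared with replication the errors were the smallest. Fen1, the flap endonuclease, had 42.6, 43.8 and 44.0 FPKM in the irradiated libraries, against 39.4, 42.2 and 38.2 FPKM in the control libraries. Lig1 had 47.4, 46.2 and 46.8 FPKM in the irradiated libraries, against 52.7, 51.1 and 48.6 FPKM in the control libraries. Fen1 lay higher and Lig1 lower in every irradiated library, and neither passed: the changes were 0.12 ± 0.06 and -0.12 ± 0.06 (SE), with limma, Benjamini-Hochberg adjusted p of 0.232 and 0.226. Pold1 and Pole, the catalytic subunits of the replicative polymerases, had changes of -0.04 and -0.03. For these 4 genes the 95% intervals lay between -0.25 and 0.26.

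The Fanconi anaemia genes, which act on crosslinks between the DNA strands, had 3 positive changes and none past the test. Fanca, of the core complex, had 8.79, 9.51 and 9.67 FPKM in the irradiated libraries, against 8.21, 7.27 and 8.66 FPKM in the control libraries. Fancd2, a subunit of the clamp that the core complex ubiquitinates, had 5.60, 7.96 and 7.88 FPKM in the irradiated libraries, against 6.35, 5.48 and 7.02 FPKM in the control libraries. Fanca did not overlap between the groups and Fancd2 did. The changes were 0.19 (95% interval -0.04 to 0.43) for Fanca, 0.15 (-0.17 to 0.47) for Fancd2 and 0.06 (-0.25 to 0.37) for Fanci, the other subunit of the clamp.

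Set side by side, the class medians ran from -0.11 to 0.15, beside a median of -0.02 over all genes tested. The median change was 0.15 for homologous recombination and 0.15 for the Fanconi anaemia genes. It was 0.06 for mismatch repair and 0.06 for nucleotide excision repair. The negative medians were -0.02 for single-strand DNA binding, -0.03 for base excision repair and -0.03 for repair synthesis and ligation. The damage kinases had -0.05, break sensing -0.07 and end joining -0.11. The signs of small medians depended on the scaling. With quantile normalization, where the median over all genes tested was 0.02, the damage kinases had 0.02 and single-strand DNA binding 0.01. Base excision repair and repair synthesis and ligation then had 0.00. Median-of-ratios scaling gave 0.01 for single-strand DNA binding and 0.00 for base excision repair and for repair synthesis and ligation. As a description of each library, the mean log2(FPKM + 1) of the homologous recombination genes was 2.85, 2.78 and 2.80 in the irradiated libraries, against 2.57, 2.68 and 2.75 in the control libraries. For end joining it was 2.43, 2.44 and 2.34 in the irradiated libraries, against 2.49, 2.53 and 2.56 in the control libraries. These 2 classes and the Fanconi anaemia genes did not overlap between the groups, with differences of 0.14, -0.13 and 0.13, and the other 7 classes overlapped. The mean over all genes tested did not overlap either, at 3.76 in the irradiated libraries and 3.81 in the control libraries, a difference of -0.04. The genes of a class are not replicates, and no test was made between classes.

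**Figure D3:**
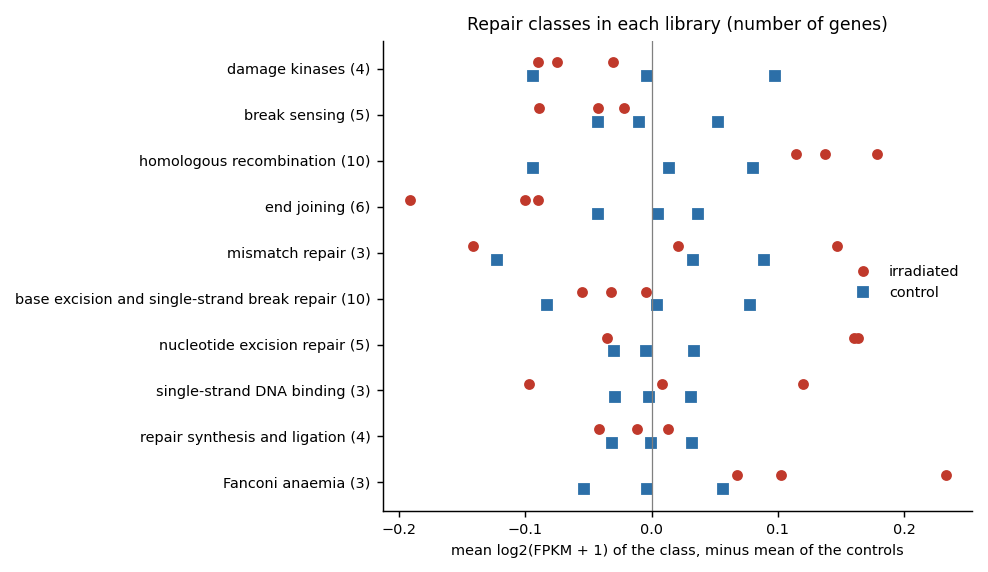
Mean log2(FPKM + 1) of each repair class in every library, drawn relative to the mean of the 3 control libraries, with irradiated libraries as circles and control libraries as squares. Homologous recombination and Fanconi anaemia genes lie higher, and end joining lower, in all 3 irradiated libraries, by 0.14, 0.13 and -0.13 on average, and the other 7 classes overlap.

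The plot of class means shows each class difference beside the spread within the groups. Homologous recombination ranged over 2.57 to 2.75 within the control libraries alone, which is more than its difference between the groups. The Fanconi anaemia genes ranged over 2.99 to 3.15 within the irradiated libraries alone, also more than their difference. For end joining the difference was larger than the range within either group.

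A further 97 genes of the same pathways, listed as partners of the 53, were read from the same fit. They were chosen with earlier results of these data known. Of the 94 that were tested, 4 passed by limma, all as higher (4.26%, against 6.29% of all genes tested as higher), and 0 passed as lower. At an unadjusted p under 0.05, 8 were higher and 4 lower, together 12.8%, against 29.6% of all genes tested. Neil3, a glycosylase for oxidized bases, had 29.5, 34.9 and 29.5 FPKM in the irradiated libraries, against 20, 20.9 and 24.4 FPKM in the control libraries. Its groups did not overlap. Neil3 rose by 0.51 ± 0.10 (SE; limma, Benjamini-Hochberg adjusted p = 0.00419) and passed in all 15 alternative fits.

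Ddb2 and Uvssa, which also passed, belong to nucleotide excision repair. Ddb2, which finds ultraviolet lesions and is a known p53 target in human cells, had 8.52, 9.74 and 10.7 FPKM in the irradiated libraries, against 7.04, 5.99 and 7.19 FPKM in the control libraries. Uvssa, which acts where RNA polymerase stalls, had 4.78, 5.58 and 5.71 FPKM in the irradiated libraries, against 2.68, 2.62 and 4.34 FPKM in the control libraries. Both lay higher in every irradiated library. Ddb2 rose by 0.46 ± 0.12 (SE; limma, Benjamini-Hochberg adjusted p = 0.0237) and Uvssa by 0.61 ± 0.17 (SE; adjusted p = 0.0284). Each call was lost when irradiated replicate 2 or 3 or control replicate 1 or 2 was left out, with adjusted p up to 0.1 for Ddb2 and 0.111 for Uvssa in the same test, and remained without irradiated replicate 1 and without control replicate 3. Acp2 on the opposite strand shares 23.8% of the Ddb2 exons and fell by 0.45 (limma, Benjamini-Hochberg adjusted p = 0.0139).

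**Figure D4:**
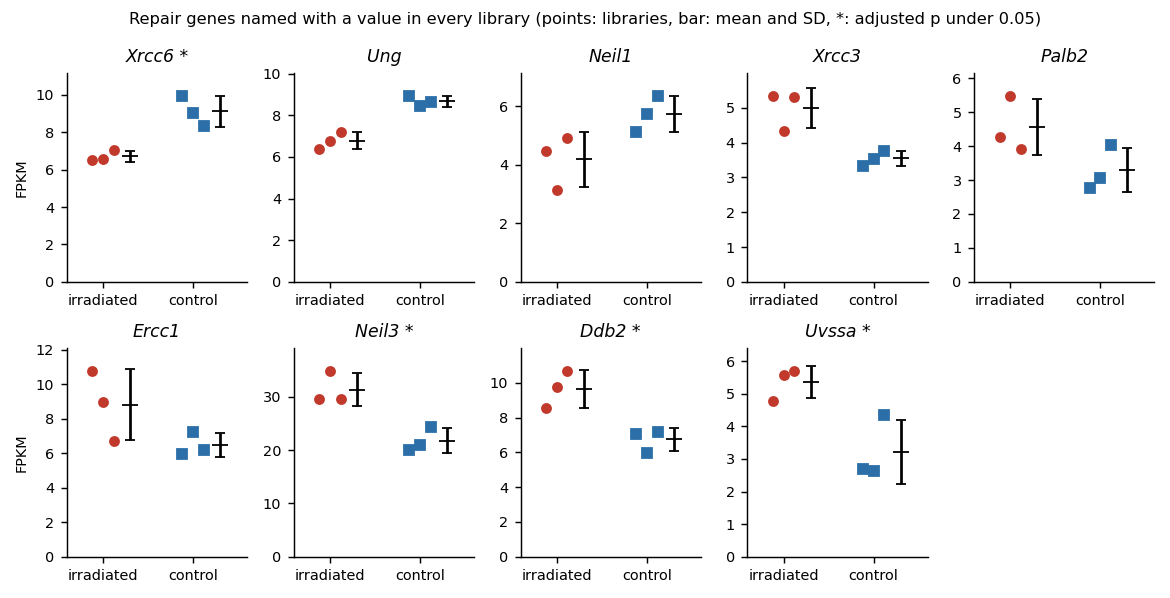
FPKM in every library of 9 repair genes, irradiated libraries as circles on the left and control libraries as squares on the right of each panel, with the mean and SD of 3 libraries beside them. An asterisk marks an adjusted p under 0.05: Xrcc6 is lower in the irradiated libraries (6.71 against 9.12 FPKM), and Neil3, Ddb2 and Uvssa are higher.

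**Figure D5:**
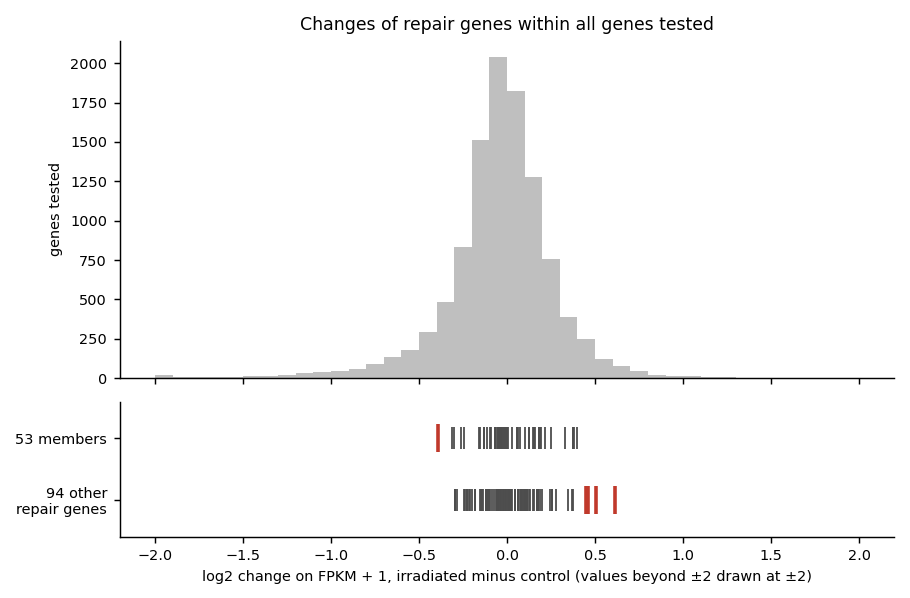
Histogram of the changes of the 10666 genes tested, irradiated minus control on log2(FPKM + 1), above ticks for the 53 repair genes and for the 94 other repair genes, with wide red ticks for genes at an adjusted p under 0.05. The repair genes span -0.39 to 0.40, while the range of all genes tested is -2.97 to 2.32.

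The histogram of all changes places the 53 repair genes in the middle of the genes tested, and the plot of single genes shows the spread behind the calls drawn there. The 5% and 95% points of all changes were -0.58 and 0.41. The 53 genes lay within that range. Among the other repair genes, those above it included Uvssa, Neil3 and Ddb2, at 0.61, 0.51 and 0.46.

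Many repair genes share their start region with a neighbour that runs the other way. By GENCODE M21 on GRCm38, 16 of the 53 (30.2%) have a listed protein-coding neighbour whose start lies within 500 bases on the opposite strand, against 1007 of 10357 tested protein-coding genes (9.72%). Examples are Atm with Npat, 307 bases apart, Brca1 with Nbr1, 194 bases apart, and Prkdc with Mcm4, 466 bases apart. Of the 16 neighbours, Pinlyp beside Xrcc1 averaged 0.00881 FPKM and was not tested. Among the others 1 passed the test, against 16.6% of all genes tested. It was Aimp2, 117 bases from Pms2, which averaged 14.5 ± 0.802 FPKM in the irradiated libraries and 19.5 ± 0.596 FPKM in the control libraries (SD, n = 3 each) and fell by 0.41 (limma, Benjamini-Hochberg adjusted p = 0.00612), while Pms2 had a change of 0.22. Xrcc3 and its neighbour Zfyve21, 297 bases apart, had changes of 0.40 and -0.05. Mutyh and Toe1, 83 bases apart, had changes of 0.38 and 0.25, neither past the test. Exons of 20 of the 53 (37.7%) overlap those of another listed gene, always on the opposite strand. The kit marks strand, but whether reads were counted by strand is not given in the sources used here, so for these genes reads of the pair may not be separated.

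Markers of several cell types differed between the groups. The T cell markers fell in 9 of 9, with sums of 217.0 to 229.8 FPKM in the irradiated libraries, against 387.9 to 408.8 FPKM in the control libraries, and Foxp3 averaged 12.6 ± 0.795 FPKM in the irradiated libraries and 22.6 ± 1.93 FPKM in the control libraries (SD, n = 3 each). Granulocyte transcripts, which the gate should leave out, were far more abundant: 9 of 12 markers rose, with sums of 98089 to 101100 FPKM in the irradiated libraries, against 66985 to 71993 FPKM in the control libraries, and S100a8 alone averaged 39026 ± 427 FPKM in the irradiated libraries and 25283 ± 1249 FPKM in the control libraries (SD, n = 3 each). B cell markers fell in 7 of 7 tested, with sums of 32.9 to 40.2 FPKM in the irradiated libraries, against 88.1 to 97.4 FPKM in the control libraries, and Igll1 was listed at 0 in irradiated replicates 1 and 2. Macrophage markers fell in 7 of 7, with sums of 264.5 to 291.5 FPKM in the irradiated libraries, against 696.7 to 727.4 FPKM in the control libraries, and erythroid markers fell in 3 of 5, with sums of 542.6 to 562.7 FPKM in the irradiated libraries, against 812.7 to 942.9 FPKM in the control libraries. Of 16 genes of cycling cells, 2 rose and 0 fell, with sums of 1148 to 1196 FPKM in the irradiated libraries, against 1119 to 1153 FPKM in the control libraries. Mki67, a marker of cycling cells, averaged 135.3 ± 3.67 FPKM in the irradiated libraries and 123.6 ± 1.6 FPKM in the control libraries (SD, n = 3 each), a change of 0.13 that did not pass (limma, Benjamini-Hochberg adjusted p = 0.0939). In such bulk libraries fewer cells of a type and less RNA per cell cannot be told apart, and the part of these markers in the values of Xrcc6 and the other repair genes was not tested. Column totals were 480854 to 485365 FPKM in the irradiated libraries and 451444 to 470375 FPKM in the control libraries. Read counts are not part of the values and absolute depth is unknown, and depth relative to control replicate 1 was 81.6% to 92.7% in the irradiated libraries and 98.5% to 102.9% in the other 2 control libraries.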

How the data were processed

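RNA-seq values of 6 libraries labelled as sorted mouse bone marrow Tregs were used, 3 irradiated and 3 control, grouped by the treatment named in the sample titles. The values that the authors deposited, 1 for each gene in each library, were read as FPKM: the file headers name only gene and sample, column totals differ between libraries, and value times exonic length sums to nearly the same total in each (1462778 to 1473799 kilobase units). The submitters' processing notes name fastp, HISAT2 and StringTie and, as builds, GRCm38 and mm10. Versions, settings and the annotation were not given in the sources used here. Per the labels' protocols a low-input column kit was used for RNA and a strand-marking mRNA kit for the libraries.

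The 10666 of 15483 genes that averaged 1 FPKM or more were fitted on log2(FPKM + 1) in R 4.3.3, using lmFit and trended eBayes from limma 3.58.1 (two-sided), and p-values were adjusted over all genes tested by the Benjamini-Hochberg method, with a threshold of 0.05. All lists were read from this fit. The script was tested on simulated data. Tables and figures were made with Python 3.11.15, pandas 2.3.3, numpy 2.4.6 and matplotlib 3.10.9. Coordinates are from GENCODE M21 on GRCm38, which holds 14960 of the listed symbols, and promoters from RefSeq GRCm38.p6.

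The 53 genes, the 97 other repair genes and the markers were chosen with earlier results of these data known. Values in every library are given for genes past the threshold, for the 2 genes of each class with the lowest p and for the highest gene of each class. Of the other repair genes, those past the threshold are named, except 1 that is counted but not reported here. Relative depth was read from values under 0.1 FPKM, which are multiples of a step per read, as their most common ratio to control replicate 1. A minority of these genes held that ratio: 22 of 246, 26 of 225 and 29 of 233 in irradiated replicates 1, 2 and 3. In control replicates 2 and 3 it was 47 of 322 and 38 of 341. Deviations of same-numbered libraries from their group means correlated at -0.04 to 0.01, and those of libraries with different numbers at -0.03 to 0.05. No pairing by replicate number was seen, but these correlations cannot show that the design was unpaired. The fit was repeated with array weights, without a trend, with a replicate block, with each library left out, with quantile normalization or median-of-ratios scaling, with 0.1 FPKM as pseudocount, and with other filters (none, a mean of 5 FPKM, or every library above 0).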

Additional observations from a re-analysis of the deposited data

How the results depend on the processing

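Of 337 alternative values for the 23 repair genes given in every library, 309 kept their direction and their side of the threshold, and 14, all of genes that did not pass, changed sign. Chek2 was 0.02 with median-of-ratios scaling and 0.05 with quantile normalization, Wrn was 0.01 with each of these scalings, and Atm was 0.01 with quantile normalization. Leaving out 1 library gave -0.10 to 0.06 for Chek2, -0.11 to 0.05 for Wrn and -0.13 to 0.00 for Mdc1. The repair genes called, 1 in the fit as reported, were 0 with no filter (2 of the other repair genes, in place of 4), 2 with median-of-ratios scaling, 1 with quantile normalization (Xrcc3, as higher, in place of Xrcc6), 2 with array weights, 3 without a trend, 0 with a replicate block and 0 to 3 when 1 library was left out. The other repair genes called ran over 2 to 6 when 1 library was left out, and the genes called over all genes over 1123 to 1652, against 1771, with the lowest count without control replicate 2. Fewer libraries were tested in these fits, and otherwise the cause was not tested. Polb, as lower, and Xrcc3, as higher, passed without irradiated replicate 2, and Ercc1 and Ogg1, as higher, without irradiated replicate 3. Xrcc3 passed in 5 of 14 alternatives and Ung in 1 of 15, without a trend. With a minimum mean of 5 FPKM, which leaves only the higher genes of each class, the median change was -0.02 for homologous recombination and -0.25 for mismatch repair. Leaving out 1 library gave medians of 0.06 to 0.18 for homologous recombination. The median of end joining, -0.11 in the fit as reported, was -0.18 without control replicate 1 and -0.04 with quantile normalization. With the replicate block 1506 genes were called and Xrcc6 had a limma adjusted p of 0.06. Whether the replicate numbers pair the libraries is not settled by the values. With 3 libraries a group and no read counts, changes of genes near the filter have wide intervals.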
